A study of Mus musculus with 12 samples.

Results

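Prenatal diesel exhaust was compared with filtered air in hearts that had later been placed under pressure load. The comparison holds 6 of the 12 hearts in the series, chosen by their labels. They are 3 hearts of mice exposed in the womb to diesel exhaust (DE TAC) and 3 hearts of mice exposed in the womb to filtered air (FA TAC). Both groups had transverse aortic constriction (TAC), an operation that narrows the aorta so that the left ventricle pumps against a raised pressure. Mating took place in filtered air, the pregnant dams breathed diesel exhaust or filtered air from embryonic day 0.5 until late gestation, and the offspring of both groups then lived in filtered air. Echocardiography was done at 11 weeks and surgery at 12 weeks with a 27-gauge needle, and the hearts were frozen at 15 weeks of age. The remaining 6 hearts, 3 DE sham and 3 FA sham, had a sham operation and give the same exposure comparison without load. The sources used here do not give strain, sex or litter. Hearts of 1 group may share a dam, so the p-values measure the spread between these hearts, and shared litters would make them too small.

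A heart under sustained pressure load enlarges its cardiomyocytes and returns to a fetal pattern of expression, with more natriuretic peptide and slow myosin. Its fibroblasts lay down collagen and matricellular proteins under the control of TGF-beta, and its mitochondria burn less fatty acid. The enzymes of fatty acid use are targets of the nuclear receptor PPAR-alpha. Diesel exhaust carries polycyclic hydrocarbons, which bind the aryl hydrocarbon receptor and induce its targets, among them Cyp1a1 and Cyp1b1.

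The libraries were made from total RNA depleted of ribosomal RNA, and held 7837190 to 13265816 counts in the 6 TAC hearts. Levels are given as CPM, counts divided by the library total and scaled by TMM factors, with the 3 hearts of a group in the order of replicates 1, 2 and 3. Differences are log2 fold changes of DE over FA ± SE, with n = 3 hearts in each group. All were cardiac: the cardiomyocyte markers summed to 101987, 106080 and 99929 CPM in the DE TAC hearts, against 143613, 89198 and 115921 CPM in the FA TAC hearts. The FA TAC hearts differed more among themselves than the DE TAC hearts did, with the wider range of log2 CPM for 58.9% of the 13626 genes tested. FA TAC replicate 1 stood apart from the other 5 hearts on the first principal component, at -62.9 against -1.61 to 21, and had the fewest genes detected, 15749 against 16884 to 17304. FA TAC replicate 2 was the highest of the FA TAC hearts in 19 of 21 collagen genes and 35 of 43 matricellular genes, against 4478 of all 13626 genes. The Y-linked gene Ddx3y was at 51.9 to 68.9 CPM in all 6 TAC hearts, and Xist did not pass 2.92 CPM in any of the 12.

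Transcripts of liver cells varied between the libraries. The 24 hepatocyte genes followed, a list chosen after the data were seen, summed to 152.1, 1009 and 30.7 CPM in the DE TAC hearts, against 6.55, 76.1 and 15.3 CPM in the FA TAC hearts. Albumin (Alb) was at 56.1, 331 and 9.25 CPM in the DE TAC hearts, and at 0, 26.4 and 2.39 CPM in the FA TAC hearts. DE TAC replicate 2 was the highest and the ranges of the groups overlapped. All 20 of the markers tested had a positive log2 fold change, where 48.4% of all genes did, and each was highest in DE TAC replicate 2. In the sham hearts the sums were 8.04, 193.9 and 5.63 CPM after DE and 9.95, 4.11 and 3.89 CPM after FA, so 1 DE sham heart was also high. None of the 24 genes reached 1 CPM in all 12 libraries. Many genes of metabolism, detoxification and secretion are also expressed in liver, and the part of liver RNA in their values was not tested. The hepatocyte sums are given again beside some of the genes that were highest in DE TAC replicate 2.

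**Figure D1:**
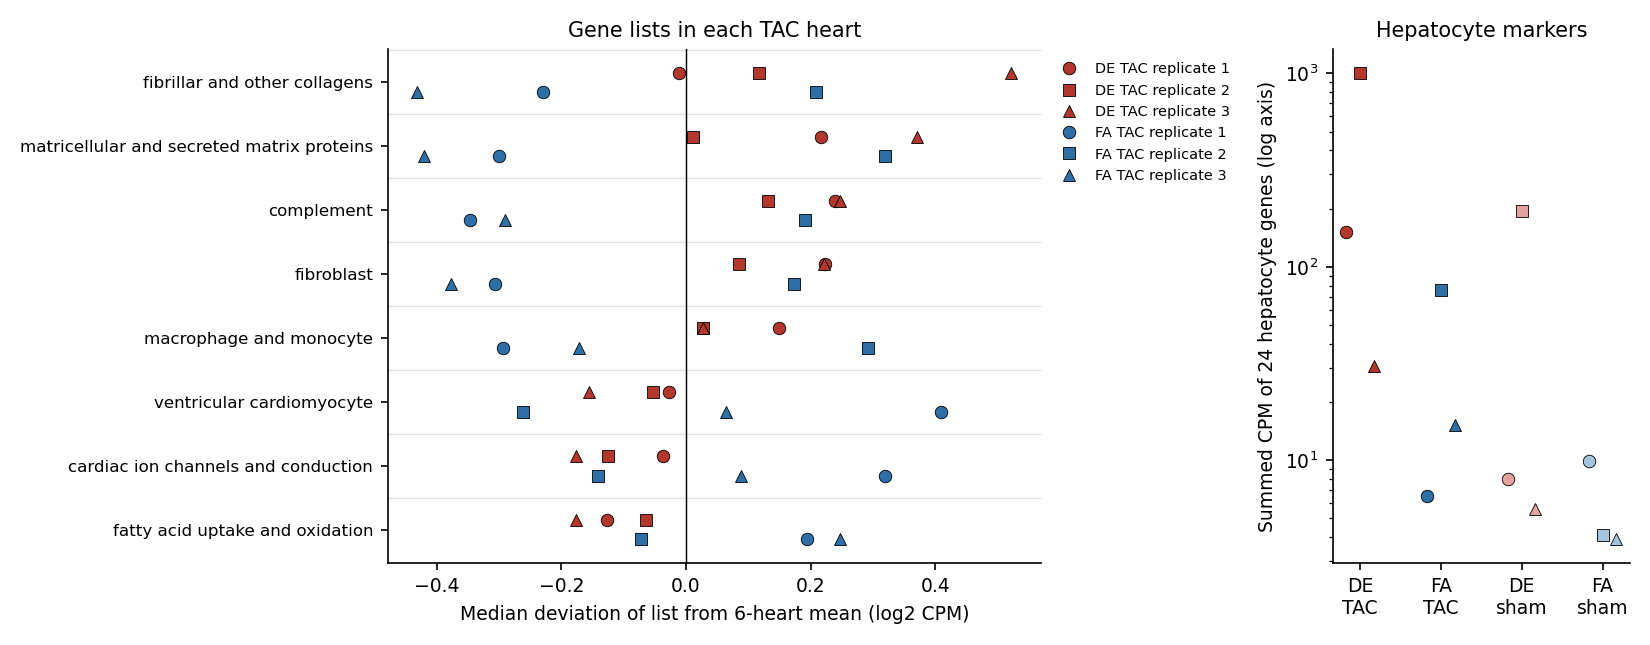
Left: median deviation of each gene list from the mean of the 6 TAC hearts (log2 CPM), with 1 symbol per heart, DE in red above FA in blue. Right: summed CPM of 24 hepatocyte genes in each of the 12 hearts on a log axis. FA TAC replicate 2 (blue square) lies with the DE hearts for collagens, matricellular proteins, complement and fibroblast markers, and DE TAC replicate 2 has the highest hepatocyte sum, 1009 CPM.

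Prenatal exposure left no single gene past the threshold in the loaded heart. In the fit of all 12 libraries with edgeR, 0 of 13626 genes passed an adjusted p of 0.05 (0%) in either direction, and the smallest adjusted p was 0.523, for the phosphatase gene Ptprf. At an unadjusted p under 0.05, edgeR counted 255 genes, 1.87% of those tested, with 153 higher (1.12%) and 102 lower (0.749%) in DE TAC hearts. Of these, 89 differed by more than 2-fold and 163 had no overlap between the hearts of both groups. The share of 1.87% was below the 0.05 that this threshold would give if no gene differed. Without regard to p, the DE hearts lay wholly above the FA hearts for 539 genes (3.96%) and wholly below for 512 (3.76%). DESeq2 called 1 gene on the same counts, Ptprf, and limma-voom called 0 with 345 genes at an unadjusted p under 0.05. Leaving out FA TAC replicate 2 raised the number at an unadjusted p under 0.05 to 537, with 0 past the adjusted threshold. The median SE of a log2 fold change was 0.45 for genes of 1 to 10 CPM, 0.226 for 10 to 100 CPM and 0.184 above that. Every gene below is therefore given by its values, and none of them passed the adjusted threshold with edgeR.

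**Figure D2:**
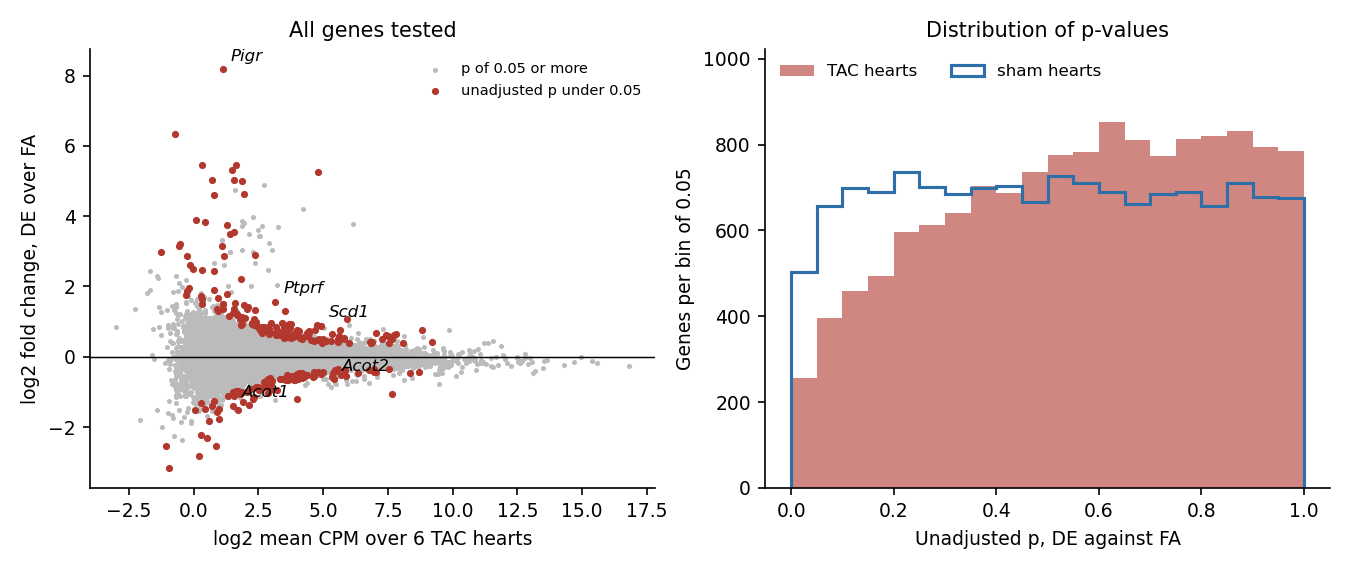
Left: log2 fold change of DE over FA in TAC hearts against log2 mean CPM over the 6 TAC hearts for 13626 genes, with the 255 genes at an unadjusted p under 0.05 in red. Right: number of genes per bin of unadjusted p for DE against FA in TAC hearts (filled) and in sham hearts (outline). The lowest bin holds 255 genes in TAC hearts and 503 in sham hearts, and in both it is the least filled.

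Ptprf encodes LAR, a receptor-type tyrosine phosphatase of cell adhesion that also acts on the insulin receptor. It lies on chromosome 4 at chr4:118208213-118291405 (GRCm38.p6, minus strand). It was at 11.5, 16.1 and 11.7 CPM in the DE TAC hearts, against 3.57, 4.64 and 5.02 CPM in the FA TAC hearts. The groups did not overlap, and the lowest DE heart had more than the highest FA heart. The log2 fold change was 1.57 ± 0.30 with a 95% interval of 0.94 to 2.2 (unadjusted p = 3.84e-05, adjusted p = 0.523 with edgeR, adjusted p = 0.00503 with DESeq2). Without load the order was the opposite: Ptprf was at 3.19, 5.52 and 4.76 CPM in the DE sham hearts, against 8.04, 7.34 and 7.30 CPM in the FA sham hearts. There the log2 fold change was -0.76 ± 0.31. The exposure by surgery interaction, the test of that difference itself, was 2.33 ± 0.44 with an adjusted p of 0.336 in edgeR and 0.00283 in DESeq2. Set against sham hearts of the same exposure, which share their libraries with these comparisons, Ptprf differed in TAC by 1.55 after DE and by -0.78 after FA on the log2 scale.

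The promoter of Ptprf is shown because it is the gene with the smallest p, and because hydrocarbons of diesel exhaust bind the aryl hydrocarbon receptor. The sequence is from RefSeq (GRCm38.p6, chr4:118291348-118291647, minus strand), from 250 bases before the transcript start to 50 after it. Capitals mark the core motif GCGTG of the aryl hydrocarbon receptor, searched on both strands and found here once, as its reverse complement.
Ptprf: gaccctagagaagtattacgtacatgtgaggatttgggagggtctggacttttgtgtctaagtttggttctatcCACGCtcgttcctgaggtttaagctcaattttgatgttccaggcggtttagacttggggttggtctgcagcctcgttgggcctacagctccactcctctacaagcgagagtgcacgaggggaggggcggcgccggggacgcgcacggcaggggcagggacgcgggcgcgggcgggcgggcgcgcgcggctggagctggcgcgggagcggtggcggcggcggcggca
The window is 64.0% G and C and holds 30 CpG dinucleotides. Among 32851 promoters of the same length, the median was 7 CpG and 32.4% held GCGTG on either strand, so a match is common and is given only as a description.

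Acyl-CoA thioesterases and other genes of fatty acid use had lower values in the DE TAC hearts. Acot1, the cytosolic thioesterase that releases free fatty acid from acyl-CoA, was at 1.23, 1.90 and 1.69 CPM in the DE TAC hearts, against 3.57, 2.51 and 6.45 CPM in the FA TAC hearts. Its mitochondrial neighbour Acot2 was at 28.3, 35.7 and 34.9 CPM in the DE TAC hearts, against 45.8, 43.4 and 65.1 CPM in the FA TAC hearts. For both genes every DE heart lay below every FA heart. The log2 fold changes were -1.39 ± 0.40 for Acot1 (unadjusted p = 0.00216) and -0.64 ± 0.19 for Acot2 (unadjusted p = 0.00299). Without FA TAC replicate 3 the log2 fold changes were -0.93 and -0.44, and without FA TAC replicate 2 they were -1.65 and -0.75. The genes are close paralogs side by side on chromosome 12, at chr12:84009502-84017670 and chr12:83987861-83993877 (GRCm38.p6). How reads that fit both were counted is not given in the sources used here, so the 2 values may not be independent. In the sham hearts Acot1 was at 12.6, 8.36 and 8.08 CPM after DE and 8.36, 7.63 and 6.81 CPM after FA, with a log2 fold change of 0.35 ± 0.36. The interaction was -1.74 ± 0.54 for Acot1 and -0.64 ± 0.27 for Acot2. Against sham hearts of the same exposure, Acot1 differed in TAC by -2.60 after DE and by -0.86 after FA on the log2 scale, and the libraries of these comparisons are shared.

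The 2 promoters are set beside each other because the genes lay low together, from the same RefSeq windows of the plus strand (chr12:84009252-84009551 and chr12:83987611-83987910). Neither holds GCGTG nor AGGTCA, the motif bound by PPAR-alpha and related receptors, on either strand, so no letters are in capitals.
Acot1: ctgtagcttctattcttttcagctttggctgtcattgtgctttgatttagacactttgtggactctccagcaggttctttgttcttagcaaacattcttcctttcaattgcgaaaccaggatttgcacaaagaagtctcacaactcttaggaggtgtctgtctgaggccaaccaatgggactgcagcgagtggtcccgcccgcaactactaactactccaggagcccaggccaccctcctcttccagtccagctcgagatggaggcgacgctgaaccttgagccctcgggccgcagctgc
Acot2: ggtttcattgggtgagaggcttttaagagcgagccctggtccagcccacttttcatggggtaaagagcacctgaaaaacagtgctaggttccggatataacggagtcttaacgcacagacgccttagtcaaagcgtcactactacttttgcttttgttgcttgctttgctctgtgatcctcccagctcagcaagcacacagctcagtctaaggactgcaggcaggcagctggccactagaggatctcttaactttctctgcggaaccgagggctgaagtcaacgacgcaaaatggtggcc
They hold 9 and 10 CpG dinucleotides. AGGTCA was found in 16.3% of the 32851 promoters, and its absence from these windows says nothing of the receptor.

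**Figure D3:**
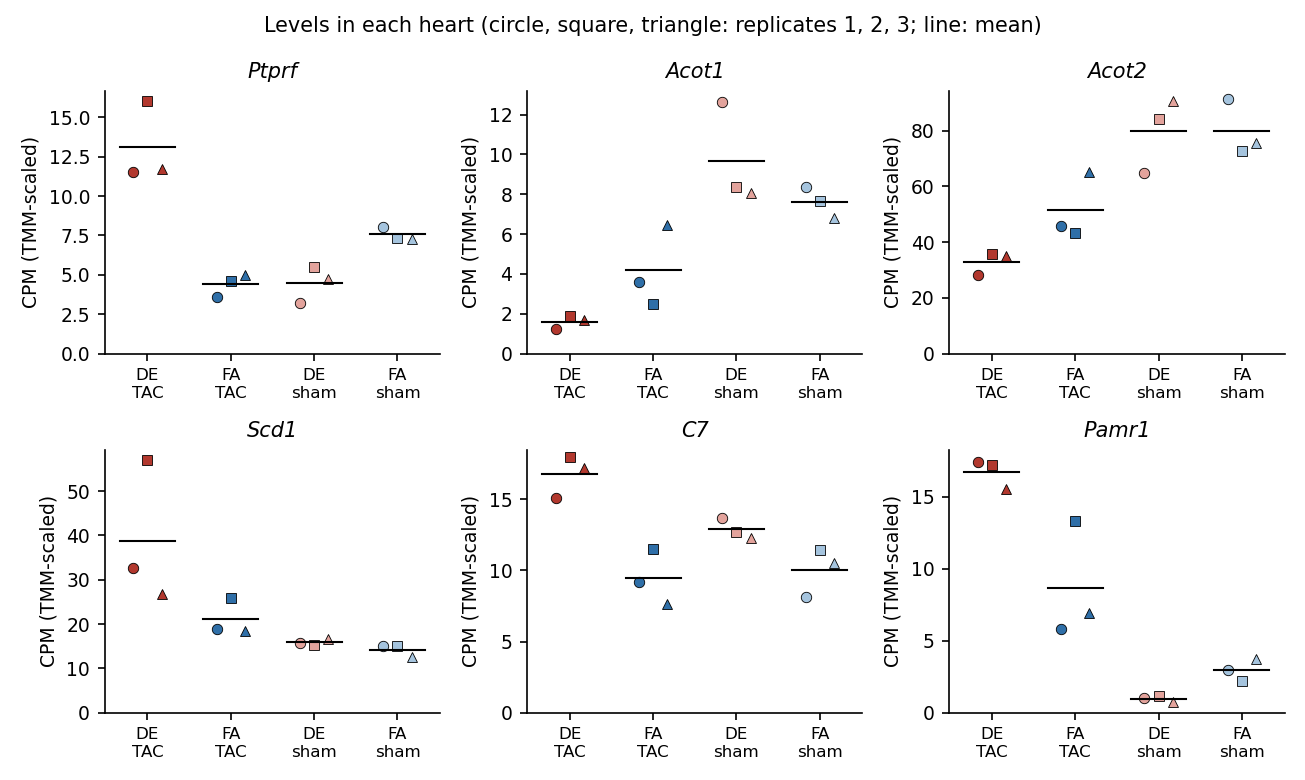
CPM of 6 genes in each of the 12 hearts, by group (DE TAC, FA TAC, DE sham, FA sham), with a line at the group mean. Ptprf, Scd1, C7 and Pamr1 lie higher in every DE TAC heart than in any FA TAC heart, and Acot1 and Acot2 lie lower in every DE TAC heart. In the sham hearts Ptprf and Pamr1 have the opposite order, and Scd1 and C7 have the same order.

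Of the 41 fatty acid genes tested, 40 had a negative log2 fold change, with a median of -0.26 beside -0.01 over all 13626 genes, of which 48.4% were positive. At an unadjusted p under 0.05, 6 were lower (0.749% of all genes were) and 0 higher. Beside Acot1 and Acot2 these were Hadhb, Acaa2, Pdk4 and Ucp3, and the last 3 were chosen after their values were seen, as were the other pathway genes added to the named ones. Hadhb, a subunit of the mitochondrial trifunctional protein of beta-oxidation, was at 112, 111 and 99.4 CPM in the DE TAC hearts, against 129, 140 and 164 CPM in the FA TAC hearts (-0.43 ± 0.16). Ucp3, the uncoupling protein of muscle mitochondria, was at 11.2, 11.6 and 5.87 CPM in the DE TAC hearts, against 28.0, 20.4 and 17.9 CPM in the FA TAC hearts (-1.21 ± 0.49). Neither gene overlapped between the groups. Pdk4, the kinase that shuts pyruvate out of oxidation, was at 92.7, 214 and 81.4 CPM in the DE TAC hearts, against 189, 404 and 219 CPM in the FA TAC hearts (-1.07 ± 0.41). For Acaa2, the last thiolase of beta-oxidation, the values were 340, 275 and 203 CPM in the DE TAC hearts, against 436, 294 and 393 CPM in the FA TAC hearts (-0.46 ± 0.21). Both overlapped, through DE TAC replicate 2 for Pdk4 and FA TAC replicate 2 for Acaa2.

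The whole list summed to 9878, 10263 and 9027 CPM in the DE TAC hearts, against 11680, 10742 and 12648 CPM in the FA TAC hearts, with no overlap. Sums without overlap were not particular to this list. Those of the mitochondrially encoded genes (DE lower) did not overlap either, nor did those of complement, matrix enzymes, and TGF-beta and activin signalling (DE higher). Cd36, Fabp3, Ppara, Ppargc1a and Cpt1b had smaller differences than either thioesterase, whereas Pdk4 and Ucp3 had larger ones than Acot2. The fatty acid translocase Cd36 was at 823, 834 and 808 CPM in the DE TAC hearts, against 844, 1087 and 1073 CPM in the FA TAC hearts (-0.29 ± 0.18), without overlap. The transport protein Fabp3 had a log2 fold change of -0.30 ± 0.19, the receptor Ppara -0.30 ± 0.20, its coactivator Ppargc1a -0.49 ± 0.49 and the mitochondrial gatekeeper Cpt1b -0.27 ± 0.28, each with overlap. The median of the list was -0.37 without FA TAC replicate 2, -0.22 without FA TAC replicate 1 and -0.20 without FA TAC replicate 3. In sham hearts the median was -0.02. Against sham hearts of the same exposure, with shared libraries, it was -0.60 in TAC after DE and -0.33 after FA.

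Other mitochondrial genes lay slightly lower in DE TAC hearts as well, none of them at an unadjusted p under 0.05. Of 61 nuclear genes of oxidative phosphorylation, 58 had a negative log2 fold change (median -0.16), and so did all 13 mitochondrially encoded genes tested (median -0.16) and 14 of 15 citric acid cycle genes (median -0.15). The mitochondrially encoded median was -0.06 without FA TAC replicate 2 and -0.30 without FA TAC replicate 3, and it was -0.35 in sham hearts. The citric acid cycle median was -0.25 without FA TAC replicate 2 and -0.08 without FA TAC replicate 3. The complex III gene Uqcrh was at 271, 223 and 190 CPM in the DE TAC hearts, against 290, 325 and 275 CPM in the FA TAC hearts (-0.38 ± 0.18). It did not overlap, and Idh3a, a subunit of isocitrate dehydrogenase, did not either (-0.19 ± 0.16). Glycolysis and glucose use had a median of -0.10, which was 0.06 without FA TAC replicate 1. The glucose transporter Slc2a1, at 11.4, 13.2 and 12.1 CPM in the DE TAC hearts against 9.17, 8.90 and 9.80 CPM in the FA TAC hearts, lay the other way without overlap (0.39 ± 0.23). In the sham hearts Slc2a1 was also higher after DE without overlap (0.29 ± 0.23). Branched-chain amino acid and ketone genes had a median of -0.12, with Mccc1, of leucine breakdown, at -0.38 ± 0.20.

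Most genes of the extracellular matrix had higher mean levels in the DE TAC hearts. FA TAC replicate 2 lay above the lowest DE heart in 18 of 21 collagen genes, 38 of 43 matricellular genes and 24 of 31 matrix enzyme genes, beside 10425 of all 13626 genes. Of 21 collagen genes 19 had a positive log2 fold change (median 0.44), with 4 higher and 0 lower at an unadjusted p under 0.05, where 1.12% of all genes were higher. Of 43 matricellular and secreted matrix genes 37 were positive (median 0.31), with 9 higher and 0 lower. Of 31 matrix enzymes and inhibitors 26 were positive (median 0.20), with 1 higher, the metalloproteinase inhibitor Timp2 (0.38 ± 0.18). Without FA TAC replicate 2 these medians were 0.59, 0.58 and 0.33, and without FA TAC replicate 1 they were 0.36, 0.27 and 0.21. Leaving out DE TAC replicate 3, the heart with the most collagen, brought the collagen median to 0.24.

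Periostin (Postn), made by activated fibroblasts, was at 593, 431 and 675 CPM in the DE TAC hearts, against 254, 533 and 208 CPM in the FA TAC hearts. FA TAC replicate 2 lay between the DE hearts, and the log2 fold change was 0.77 ± 0.30. Ltbp2, a microfibril protein of the latent TGF-beta binding family, was at 85.6, 64.0 and 99.1 CPM in the DE TAC hearts, against 23.8, 66.8 and 27.1 CPM in the FA TAC hearts (1.08 ± 0.35). The small proteoglycan biglycan (Bgn) was at 188, 225 and 248 CPM in the DE TAC hearts, against 120, 207 and 114 CPM in the FA TAC hearts (0.58 ± 0.21). In each of these genes the overlap came from FA TAC replicate 2 alone. Cilp, a secreted matrix protein of scar and cartilage, was at 258, 263 and 309 CPM in the DE TAC hearts, against 112, 276 and 140 CPM in the FA TAC hearts (0.65 ± 0.29). Ccn5, a matricellular protein, was at 43.6, 37.4 and 26.3 CPM in the DE TAC hearts, against 20.4, 26.7 and 10.04 CPM in the FA TAC hearts (0.91 ± 0.31). The other 4 matricellular genes at an unadjusted p under 0.05 were Fn1 (fibronectin), Fbln2, Fstl1 and the Wnt antagonist Sfrp1, at 0.51, 0.39, 0.40 and 0.76.

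Among the collagens, Col1a1, the main chain of type I fibrils, was at 261, 223 and 295 CPM in the DE TAC hearts, against 175, 222 and 113 CPM in the FA TAC hearts. The lowest DE heart and the highest FA heart nearly met without overlapping, and the log2 fold change was 0.61 ± 0.25. Col8a1, a short-chain collagen, was at 212, 183 and 238 CPM in the DE TAC hearts, against 112, 194 and 105 CPM in the FA TAC hearts (0.62 ± 0.22). The fibril-associated collagens Col14a1 and Col16a1 had log2 fold changes of 0.59 ± 0.23 and 0.77 ± 0.32, each with overlap through FA TAC replicate 2. Type III collagen, Col3a1, ranged from 378 to 822 CPM in the DE TAC hearts and from 279 to 559 CPM in the FA TAC hearts (0.55 ± 0.42). In the sham hearts Postn was lower in both groups, at 40.3, 27.2 and 39.1 CPM after DE and 38.95, 38.3 and 52.1 CPM after FA. The sham medians were 0.19 for collagens and 0.02 for matricellular genes. The interaction was 1.05 ± 0.43 for Postn and 1.21 ± 0.59 for Ltbp2. Against sham hearts of the same exposure, with shared libraries, matricellular genes had a median of 1.83 in TAC after DE and 1.45 after FA.

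**Figure D4:**
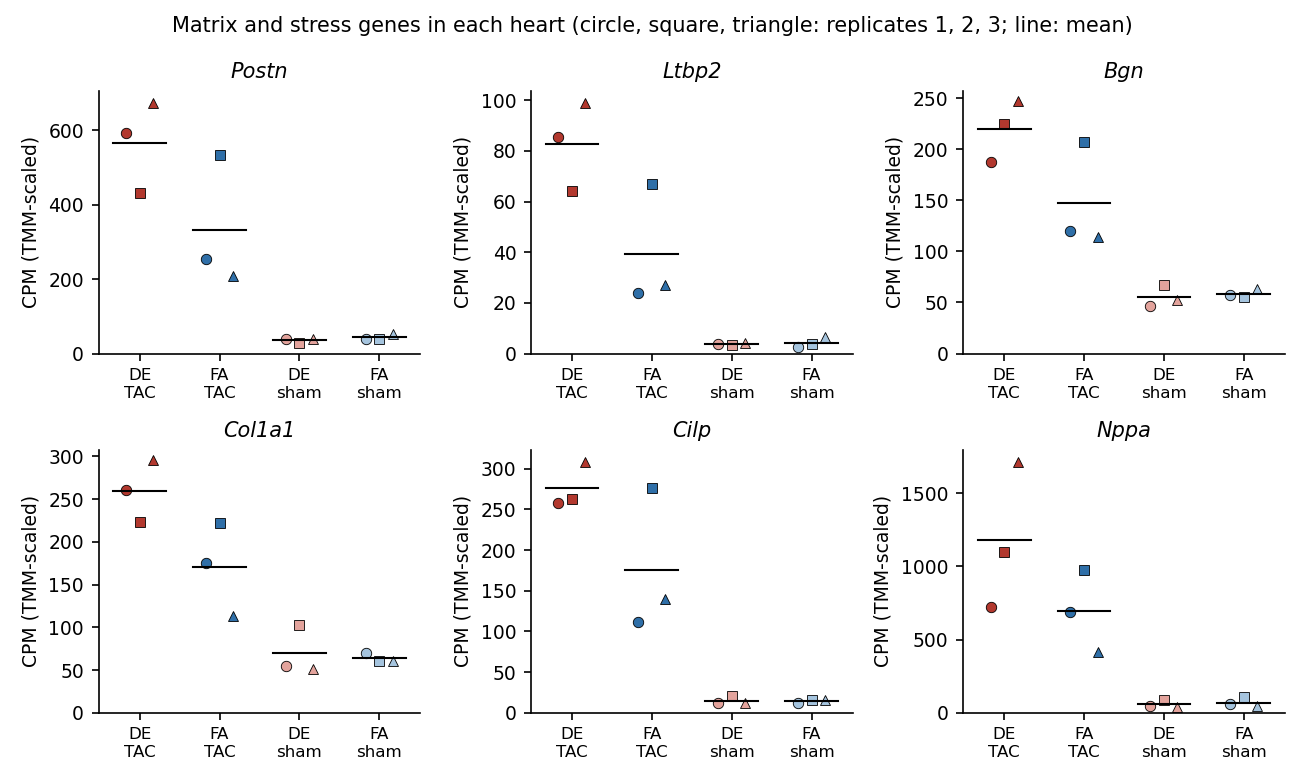
CPM of Postn, Ltbp2, Bgn, Col1a1, Cilp and Nppa in each of the 12 hearts, by group, with a line at the group mean. FA TAC replicate 2 (blue square) lies well above FA TAC replicates 1 and 3 in Postn, Ltbp2, Bgn and Cilp.

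Secreted signals and proteins of fibroblasts followed a similar order of values. Pamr1, a secreted protein of the peptidase domain family, was at 17.4, 17.2 and 15.5 CPM in the DE TAC hearts, against 5.84, 13.3 and 6.93 CPM in the FA TAC hearts (0.94 ± 0.32). It had no overlap, and in the sham hearts it had the opposite order, at 1.02, 1.17 and 0.721 CPM after DE against 2.96, 2.2 and 3.73 CPM after FA. Its interaction was 2.54 ± 0.54 (unadjusted p = 0.00011, adjusted p = 0.739 with edgeR). Ccdc80, a matrix-bound secreted protein, was at 191, 173 and 180 CPM in the DE TAC hearts, against 121, 156 and 106 CPM in the FA TAC hearts, again without overlap (0.51 ± 0.17). Of 20 fibroblast markers 18 had a positive log2 fold change (median 0.28), where the median of all genes was -0.01. At an unadjusted p under 0.05 with edgeR, 3 were higher, Pamr1, Postn and Col1a1, where 1.12% of all genes were. Members of this and the other lists were chosen with earlier results of these data known, so these counts are descriptions and not tests. Without FA TAC replicate 2 the fibroblast median was 0.48, and without FA TAC replicate 1 it was 0.15. The fibroblast markers summed to 4459, 3967 and 4574 CPM in the DE TAC hearts, against 3128, 4475 and 2797 CPM in the FA TAC hearts. Pdgfra, a defining fibroblast receptor, was at 59.3, 72.9 and 72.7 CPM in the DE TAC hearts, against 51.2, 74.4 and 50.5 CPM in the FA TAC hearts (0.22 ± 0.19). The fibroblast list shares Col1a1, Col1a2 and Col3a1 with the collagens and Dcn, Fbln1, Lum, Mfap5 and Postn with the matricellular genes, so the lists are not independent, and the part of fibroblast number in the matrix values was not tested. More fibroblasts and more RNA per fibroblast cannot be told apart in whole hearts, and the same holds for fewer cells of a type and less RNA per cell in all results here.

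TGF-beta ligands were among the genes with higher values. Tgfb3 was at 25.8, 27.4 and 27.9 CPM in the DE TAC hearts, against 13.1, 20.7 and 14.9 CPM in the FA TAC hearts (0.74 ± 0.27). Bmp6, a bone morphogenetic ligand of endothelial cells, was at 12.4, 15.8 and 14.5 CPM in the DE TAC hearts, against 6.43, 9.90 and 7.53 CPM in the FA TAC hearts (0.84 ± 0.29). Neither overlapped, whereas Tgfb2 did, through FA TAC replicate 2 (0.61 ± 0.28). The whole list of TGF-beta and activin signalling had 18 of 22 genes positive (median 0.12) and these 3 higher at an unadjusted p under 0.05, where 1.12% of all genes were. Among growth factor, insulin and Wnt genes (37 tested, median 0.18) 3 were higher and 1 lower at that p, where 1.12% of all genes were higher and 0.749% lower. Without FA TAC replicate 1 that median was 0.08. Igfbp4, which binds insulin-like growth factors, was at 65.6, 66.4 and 66.2 CPM in the DE TAC hearts, against 41.0, 53.9 and 43.0 CPM in the FA TAC hearts (0.52 ± 0.21). Erbb4, the neuregulin receptor of cardiomyocytes, was at 4.13, 4.02 and 4.38 CPM in the DE TAC hearts, against 11.9, 4.51 and 6.93 CPM in the FA TAC hearts (-0.90 ± 0.36). Without FA TAC replicate 1 the log2 fold change of Erbb4 was -0.45.

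Complement genes also had higher values. The terminal component C7, part of the membrane attack complex, was at 15.1, 18.0 and 17.2 CPM in the DE TAC hearts, against 9.17, 11.5 and 7.65 CPM in the FA TAC hearts (0.82 ± 0.24, unadjusted p = 0.00272). C4b, of the classical pathway, was at 70.7, 58.1 and 61.9 CPM in the DE TAC hearts, against 44.4, 45.4 and 22.0 CPM in the FA TAC hearts (0.77 ± 0.32). Neither overlapped. Both were also higher in every DE sham heart than in any FA sham heart. C7 was at 13.7, 12.7 and 12.3 CPM in sham hearts after DE against 8.15, 11.5 and 10.5 CPM after FA (0.36 ± 0.25). Its interaction was 0.46 ± 0.35. C4b was at 20.3, 40.1 and 16.0 CPM in sham hearts after DE against 10.2, 16.0 and 15.1 CPM after FA (0.89 ± 0.34). Of 19 complement genes tested 17 were positive (median 0.29), with 3 higher at an unadjusted p under 0.05, where 1.12% of all genes were higher and 48.4% positive. The third was Cfb (1.09 ± 0.48). Without FA TAC replicate 2 the median was 0.52, and without FA TAC replicate 1 it was 0.23. The log2 fold change of C4b was 0.94 without FA TAC replicate 2 and 0.50 without FA TAC replicate 3. Liver makes complement proteins too: Cfb was highest in DE TAC replicate 2, at 9.37 CPM, the heart with the highest hepatocyte sum, and the part of liver RNA in its value was not tested. C7 was also highest in DE TAC replicate 2, and C4b in DE TAC replicate 1, and the part of liver RNA in these values was not tested.

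Among the hallmark genes of hypertrophy, Nppa, Nppb, Myh7 and Acta1 overlapped between the groups. Nppa, which encodes atrial natriuretic peptide, was at 724, 1100 and 1712 CPM in the DE TAC hearts, against 687, 976 and 415 CPM in the FA TAC hearts (0.77 ± 0.45). Nppb, the B-type peptide, was at 268, 433 and 563 CPM in the DE TAC hearts, against 294, 430 and 345 CPM in the FA TAC hearts (0.24 ± 0.26). Their ranges overlapped. The fetal myosin Myh7 was at 2434, 3115 and 2463 CPM in the DE TAC hearts, against 1589, 1267 and 3285 CPM in the FA TAC hearts (0.38 ± 0.28). Its log2 fold change was 0.90 without FA TAC replicate 3 and 0.13 without FA TAC replicate 2. Skeletal actin, Acta1, was at 2765, 4013 and 3565 CPM in the DE TAC hearts, against 2975, 2845 and 1754 CPM in the FA TAC hearts (0.45 ± 0.47). Of 22 genes of the fetal program 18 had a positive log2 fold change (median 0.24), and 0 were at an unadjusted p under 0.05. Without DE TAC replicate 3 the median was 0.09. Ankrd1, a stress-induced ankyrin repeat protein of the sarcomere, was at 2983, 2741 and 3110 CPM in the DE TAC hearts and 2519, 2537 and 1739 CPM in the FA TAC hearts, without overlap (0.38 ± 0.25). Npr3, the receptor that clears natriuretic peptides, was at 25.1, 21.4 and 29.3 CPM in the DE TAC hearts, against 12.0, 14.2 and 21.4 CPM in the FA TAC hearts (0.67 ± 0.24). The groups nearly met without overlapping, at 21.42 CPM in the lowest DE heart and 21.39 CPM in the highest FA heart.

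Adult contractile genes lay slightly lower in the DE TAC hearts, with FA TAC replicate 1 the highest heart. The adult myosin Myh6 was at 18834, 19048 and 17730 CPM in the DE TAC hearts, against 28734, 15173 and 21407 CPM in the FA TAC hearts (-0.23 ± 0.23). The calcium pump Atp2a2 was at 4694, 4310 and 4279 CPM in the DE TAC hearts, against 7276, 3834 and 4931 CPM in the FA TAC hearts (-0.27 ± 0.23). In both, the FA hearts spread across the whole range of the DE hearts. Of 29 genes of contraction and calcium handling 25 had a negative log2 fold change (median -0.12), of 15 ventricular cardiomyocyte markers 13 (median -0.16), and of 32 ion channel and conduction genes 25 (median -0.17), all with 0 at an unadjusted p under 0.05. Without FA TAC replicate 1 the medians were -0.004, 0.02 and 0.05. Kcna2, a voltage-gated potassium channel gene, was at 1.02, 0.781 and 0.895 CPM in the DE TAC hearts, against 3.57, 1.63 and 4.06 CPM in the FA TAC hearts (-1.76 ± 0.60). It had the opposite sign in sham hearts (1.43 ± 0.60), with an interaction of -3.19 ± 0.84. Adra1b, the alpha-1B adrenergic receptor gene, was at 6.53, 6.14 and 4.97 CPM in the DE TAC hearts, against 14.4, 6.64 and 9.32 CPM in the FA TAC hearts (-0.78 ± 0.28). Its log2 fold change was -0.44 without FA TAC replicate 1. Against sham hearts of the same exposure, with shared libraries, Adra1b differed in TAC by -1.98 after DE and by -1.11 after FA.

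The induced targets of the aryl hydrocarbon receptor had small differences beside their intervals in these adult hearts. Cyp1b1 was at 12.0, 12.4 and 11.6 CPM in the DE TAC hearts, against 10.7, 11.4 and 10.3 CPM in the FA TAC hearts, without overlap but with a 95% interval of -0.59 to 0.89 for the log2 fold change of 0.15. Tiparp was at 17.1, 14.1 and 13.7 CPM in the DE TAC hearts, against 17.03, 14.3 and 15.1 CPM in the FA TAC hearts (-0.04 ± 0.23). The repressor Ahrr had an interval of -1.01 to 1.31. Cyp1a1 was too low to test, with 0, 0 and 2 counts in the DE TAC hearts and 7, 0 and 1 counts in the FA TAC hearts. Of the list of 26 receptor and xenobiotic genes 21 were tested (median 0.15). At an unadjusted p under 0.05 with edgeR, Ephx1, the microsomal epoxide hydrolase, was higher (0.44 ± 0.20) and the P450 gene Cyp2j6 lower (-0.96 ± 0.41). Without FA TAC replicate 1 these log2 fold changes were 0.26 for Ephx1 and -0.43 for Cyp2j6. The antioxidant genes regulated by NRF2 had a median of -0.07 over 38 genes. Nqo1 was at -0.05 ± 0.19 and Hmox1 at -0.48 ± 0.34, while Gsta3 was at 6.82, 8.48 and 2.49 CPM in the DE TAC hearts against 0.595, 1.88 and 4.42 CPM in the FA TAC hearts (1.36 ± 0.58). Gsta3 is also a liver gene, and the part of liver RNA in its value was not tested.

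Enzymes that write and erase chromatin marks had a median of -0.0046 over 47 genes, with 0 at an unadjusted p under 0.05. The DNA methyltransferases Dnmt1 and Dnmt3a had log2 fold changes of -0.08 ± 0.24 and -0.07 ± 0.20, and Tet2, which oxidises methylcytosine, -0.32 ± 0.23. Of 37 imprinted genes 26 were tested (median -0.05). Igf2, the fetal growth factor expressed from the paternal allele, was at 12.5, 8.70 and 10.5 CPM in the DE TAC hearts, against 7.15, 8.90 and 8.48 CPM in the FA TAC hearts (0.38 ± 0.28). H19, the maternally expressed RNA beside it, was at -0.28 ± 0.37. The imprinted zinc finger gene Zim1 alone was lower at an unadjusted p under 0.05, at 0.508, 0.669 and 0.398 CPM in the DE TAC hearts against 2.02, 1.504 and 1.08 CPM in the FA TAC hearts (-1.53 ± 0.71), which is few counts in either group.

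Inflammatory, interferon and macrophage genes had no member at an unadjusted p under 0.05. Cytokines and chemokines (31 tested) had a median of 0.18, interferon-stimulated genes (35) 0.08 and macrophage markers (23) 0.17. These medians moved with single hearts: cytokines and chemokines were at 0.06 without DE TAC replicate 1, interferon-stimulated genes at 0.0082 without FA TAC replicate 1 and 0.14 without FA TAC replicate 2, and macrophage markers at 0.02 without FA TAC replicate 3 and 0.35 without FA TAC replicate 2. The macrophage markers summed to 613, 586 and 610 CPM in the DE TAC hearts, against 467, 718 and 507 CPM in the FA TAC hearts, with FA TAC replicate 2 highest of all 6. The macrophage receptor Csf1r was at 66.5, 63.4 and 65.9 CPM in the DE TAC hearts, against 52.0, 65.4 and 50.8 CPM in the FA TAC hearts (0.22 ± 0.19). Among 35 cell cycle genes (median 0.10) the proliferation marker Mki67 was at 20.4, 18.3 and 21.8 CPM in the DE TAC hearts, against 7.86, 17.9 and 11.5 CPM in the FA TAC hearts (0.70 ± 0.26). It had no overlap. Circadian clock genes had a median of 0.08 over 22 genes and immediate early genes -0.02 over 21. Endothelial markers had a median of 0.01 and smooth muscle and pericyte markers 0.02. The 8 mesothelial and epicardial genes tested were all positive (median 0.78), from few counts: Msln, a mesothelial surface protein, was at 4.21, 1.56 and 5.57 CPM in the DE TAC hearts, against 1.79, 1.13 and 0.358 CPM in the FA TAC hearts (1.78 ± 0.68). Without DE TAC replicate 1 that median was 0.07.

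**Figure D5:**
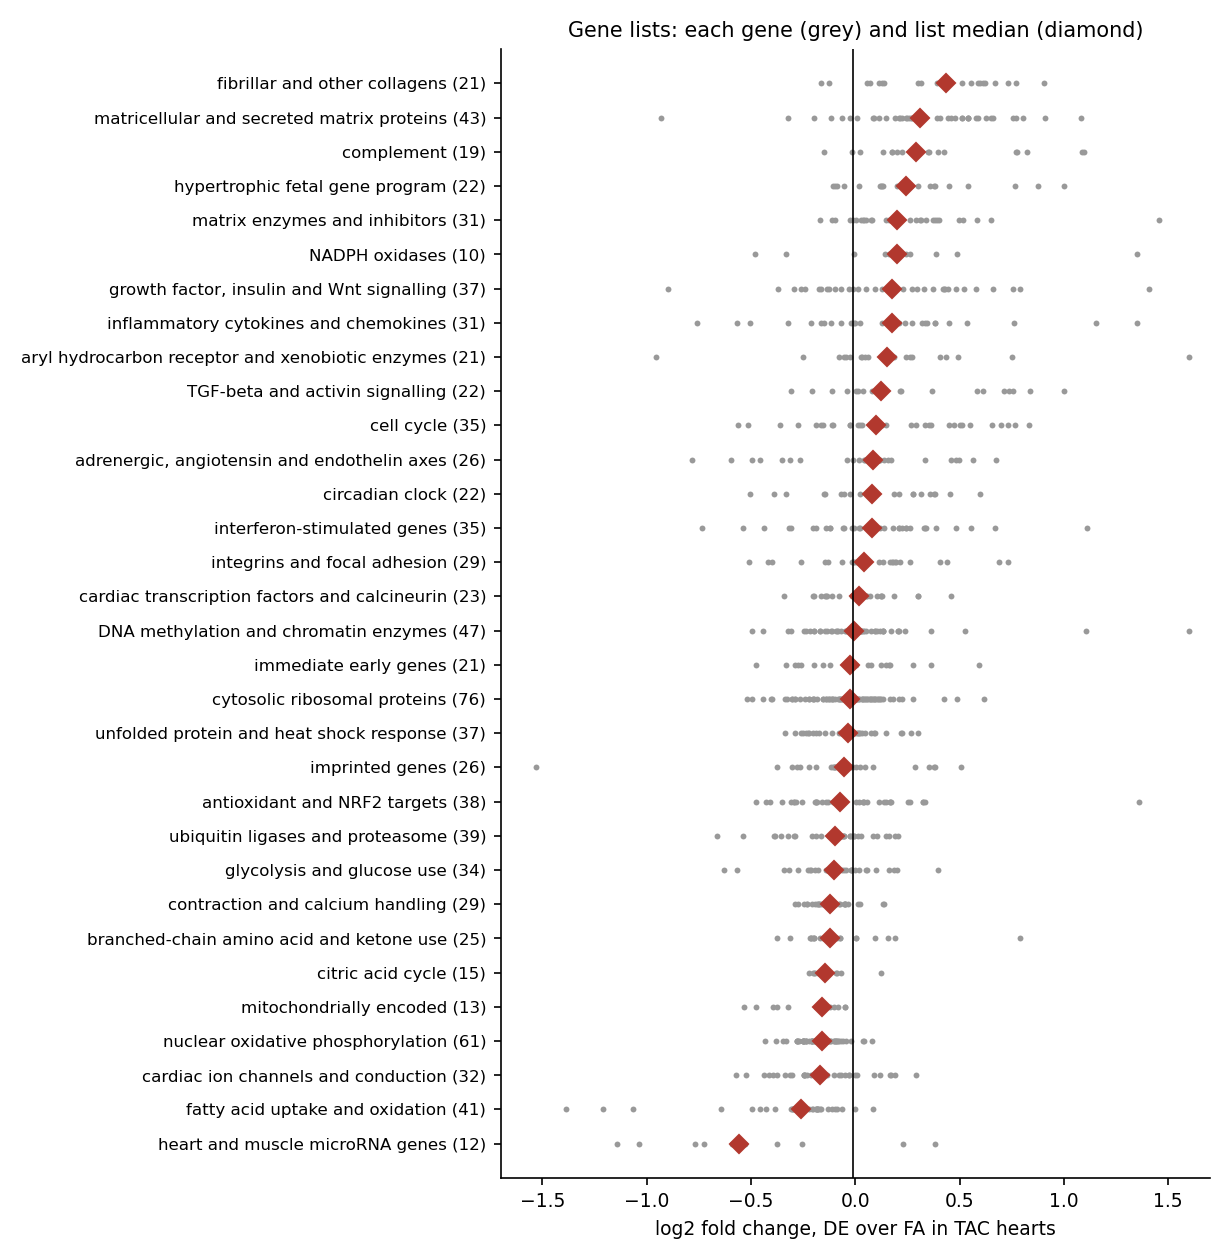
Log2 fold change of DE over FA in TAC hearts for each tested gene of the pathway lists (grey) and the median of each list (diamond), with the number of genes tested in brackets and a line at the median of all genes, -0.01. Genes beyond 1.6 in either direction are drawn at that limit. Collagens have the highest median, 0.44, and fatty acid genes (-0.26) and the low-count microRNA genes (-0.56) have the lowest.

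Other genes were named by the rule of smallest p without overlap. Scd1, the desaturase that makes monounsaturated fatty acids, was at 32.6, 57.1 and 26.8 CPM in the DE TAC hearts, against 18.8, 25.8 and 18.5 CPM in the FA TAC hearts (0.88 ± 0.24, unadjusted p = 0.00156). In the sham hearts Scd1 also lay wholly higher after DE than after FA (0.16 ± 0.25). Among the TAC hearts it was highest in DE TAC replicate 2, the heart with the highest hepatocyte sum, and the part of liver RNA in it was not tested. DE TAC replicate 3, with a hepatocyte sum of 30.7 CPM, had 26.8 CPM, and FA TAC replicate 2, with a sum of 76.1 CPM, had 25.8 CPM. Pemt, a phosphatidylcholine enzyme of liver, was at 1.23, 3.01 and 2.09 CPM in the DE TAC hearts, against 0.357, 0.501 and 0.239 CPM in the FA TAC hearts, near the level of 3 counts. The polymeric immunoglobulin receptor gene Pigr was at 4.43, 8.26 and 0.298 CPM in the DE TAC hearts and had 0 counts in all 3 FA TAC hearts, so no fold is given. The transcribed pseudogene Gm5424 was at 14.4, 24.3 and 9.85 CPM in the DE TAC hearts, against 5.24, 8.15 and 6.21 CPM in the FA TAC hearts (1.31 ± 0.44). Each of these 3 was highest in DE TAC replicate 2, like the hepatocyte genes.

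Arhgap42, a GTPase-activating protein of smooth muscle, was at 20.6, 11.8 and 10.9 CPM in the DE TAC hearts, against 7.38, 7.64 and 8.24 CPM in the FA TAC hearts (0.90 ± 0.29). Pigs, a subunit of the complex that attaches GPI anchors, was at 16.2, 13.1 and 15.5 CPM in the DE TAC hearts, against 8.69, 7.77 and 9.32 CPM in the FA TAC hearts (0.80 ± 0.28). Pkhd1l1, a fibrocystin-like membrane protein, was at 18.3, 10.9 and 12.7 CPM in the DE TAC hearts, against 5.60, 9.52 and 6.45 CPM in the FA TAC hearts (0.96 ± 0.33). In all 3 genes the DE hearts lay wholly above the FA hearts, with sham log2 fold changes of -0.27, 0.30 and -0.01.

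On the lower side, Yipf7, a Golgi membrane protein, was at 32.8, 33.9 and 31.0 CPM in the DE TAC hearts, against 42.4, 52.0 and 51.6 CPM in the FA TAC hearts (-0.58 ± 0.18). Wfdc1, a secreted protein of the whey acidic protein family, was at 4.86, 4.24 and 5.17 CPM in the DE TAC hearts, against 12.9, 7.64 and 8.60 CPM in the FA TAC hearts (-1.02 ± 0.31). Sumf2, a sulfatase-modifying factor, was at 2.83, 3.12 and 2.88 CPM in the DE TAC hearts, against 6.67, 7.14 and 6.45 CPM in the FA TAC hearts (-1.20 ± 0.40). Sumf2 had a narrow spread in both groups, and none of the 3 overlapped. Msantd4 was at 40.8, 44.1 and 41.2 CPM in the DE TAC hearts, against 68.0, 55.3 and 57.0 CPM in the FA TAC hearts (-0.52 ± 0.18). Bhlhb9 (-0.96 ± 0.34), 4931430N09Rik (-0.66 ± 0.24) and A930013F10Rik (-1.84 ± 0.63) completed the lower genes with Trmt9b. Trmt9b, a tRNA methyltransferase-like gene, was at 0.290, 0.335 and 0.199 CPM in the DE TAC hearts, from 4, 3 and 2 counts, against 1.91, 1.504 and 2.63 CPM in the FA TAC hearts.

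The genes with a low p-value for the exposure were compared with and without load. In sham hearts edgeR called 0 of 13626 genes, with 503 at an unadjusted p under 0.05 (3.69%), and DESeq2 called 0. The 153 genes higher in DE TAC hearts and the 261 (1.92%) higher in DE sham hearts at that p had 6 genes in common, 3.92% of the first and 2.30% of the second. C4b was among them. Conversely 7 of the 153 (4.58%) were among the 242 (1.78%) lower in DE sham hearts, with Ptprf, Pamr1 and Msln among them. Of the 102 genes lower in DE TAC hearts, 3 were higher and 1 was lower in DE sham hearts at that p. The exposure by surgery interaction called 0 genes with edgeR, with 327 at an unadjusted p under 0.05 (2.40%) and a smallest adjusted p of 0.336. DESeq2 called 1, Ptprf, whose groups were in opposite order without overlap in both surgeries. Of all 13626 genes, 15 were in such opposite order with DE above FA in TAC hearts and below it in sham hearts, and 17 the other way. In sham hearts alone the DE hearts lay wholly above the FA hearts for 4% of all genes and wholly below for 3.6%. In TAC hearts alone these shares were 3.96% and 3.76%. Whether more genes were in opposite order than these shares alone would give was not tested.

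The 10 genes of at least 1 CPM with the smallest p for the interaction included Ptprf, Pamr1, Kcna2, Msln and Msantd4 above. Pim3, a serine/threonine kinase gene, was at 44.7, 35.4 and 32.9 CPM in the DE TAC hearts, against 58.6, 40.1 and 48.3 CPM in the FA TAC hearts (-0.38 ± 0.18). In the sham hearts it was at 120, 117 and 101 CPM after DE and 67.3, 69.7 and 82.7 CPM after FA (0.62 ± 0.18), and the interaction was -1.0 ± 0.25. Enho, which encodes the peptide adropin, was at 2.47, 2.79 and 2.98 CPM in the DE TAC hearts against 5.72, 4.51 and 3.94 CPM in the FA TAC hearts, with an interaction of -1.97 ± 0.55. The log2 fold change of Enho was -0.78 ± 0.39 in TAC hearts and 1.18 ± 0.40 in sham hearts. Echdc3, an enoyl-CoA hydratase domain gene, had an interaction of -1.22 ± 0.33, with -0.34 ± 0.24 in TAC hearts and 0.88 ± 0.24 in sham hearts. The adhesion molecule Cadm1 and the chloride channel gene Ttyh2 had positive interactions, 2.95 ± 0.84 and 1.62 ± 0.47. Cadm1 was at 0.64 in TAC hearts, and Ttyh2 at 0.48 ± 0.33 in TAC hearts and -1.14 ± 0.34 in sham hearts. For Enho, Echdc3 and Ttyh2 the larger difference was in the sham hearts. With edgeR all 10 missed the threshold, and with DESeq2 Ptprf alone passed it.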

How the data were processed

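RNA from 12 mouse hearts was sequenced as total RNA depleted of ribosomal RNA, with 4 samples in each sequencing run, per the labels. The sources used here do not say which heart was in which run, so whether the groups differed in run is not known and run could not be fitted. The deposited values are raw counts per gene, made by the authors with cutadapt 1.6, Subread 1.4.2 and featureCounts on mm10, per the submitters' processing notes. The sources used here do not state the strand setting or how reads that fit several genes were treated. Genes were filtered with filterByExpr at a count minimum of 10, scaled by TMM and fitted in edgeR 4.0.16 (R 4.3.3) with the robust quasi-likelihood test and a mean for each of the 4 groups, with Benjamini-Hochberg adjustment over 13626 genes and a threshold of 0.05. The fit was tested on simulated data. DESeq2 1.42.0 and limma 3.58.1 were alternatives. Named genes were up to 12 in each direction with the smallest p, at least 1 CPM and no overlap, 3 per list, the hallmark genes, and 10 for the interaction. Other named genes were chosen after their values were seen. Members and lists were chosen with earlier results of these data known. Levels and counts cover counting error only through their replicates, and 3 counts corresponded to 0.218 to 0.376 CPM in the TAC hearts.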

Additional observations from a re-analysis of the deposited data

How the results depend on the processing

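The count of genes past the threshold for DE against FA in TAC hearts was 0 with RLE scaling, limma-voom, a fit without robust estimates, a fit of TAC libraries only, mitochondrially encoded genes left out and each library left out in turn (lowest 0, highest 0). It was 1 without a filter on low counts (Serpina1c, a liver gene) and 1 with DESeq2 (Ptprf). The interaction likewise counted 0 in the other settings run, 1 without the filter (Capn11) and 1 with DESeq2 (Ptprf), and leaving out each library gave 0 to 0. The comparison in sham hearts counted 0 in every setting. Without the filter 545 genes had an unadjusted p under 0.05 in TAC hearts, against 255 with it, and 537 did without FA TAC replicate 2. Over 92 named genes and 19 settings, 1730 of 1745 values kept their direction and side of the threshold, 1 passed it, and 14 turned in sign. The genes that turned had log2 fold changes near 0 or of about the size of their SE, as in Atp2a2, Myh6 and Cpt1b. With each library left out in turn, the log2 fold changes of the genes that turned ranged as follows: Ahrr -0.48 to 0.43, Atp2a2 -0.46 to 0.016, Cpt1b -0.49 to 0.13, Dnmt1 -0.20 to 0.083, Dnmt3a -0.18 to 0.10, H19 -0.52 to 0.060, Myh6 -0.44 to 0.021, Nppb -0.023 to 0.48, Nqo1 -0.21 to 0.071 and Tiparp -0.15 to 0.033. Leaving out FA TAC replicate 1 turned Atp2a2, Cpt1b, Dnmt1, Dnmt3a, H19, Myh6 and Tiparp, leaving out DE TAC replicate 3 turned Ahrr, Nppb, Nqo1 and Tiparp, and leaving out FA TAC replicates 2 and 3 turned Nqo1 and Ahrr. With limma-voom Ahrr was at -0.032. The cause was not tested. Genes of 1 to 10 CPM had a median SE of 0.45, which limits what 3 hearts a group can show. No paired analysis was possible because the replicate numbers were given in accession order and pair no hearts.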
